A study of Mus musculus with 3 samples.

Results

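The immediate early and AP-1 genes are 10 genes taken from a fixed list of names: Fos, Fosb, Jun, Junb, Jund, Egr1, Nr4a1, Atf3, Ier2 and Klf6. All 10 were present in the deposited gene tables, which hold 31053 genes. In GENCODE M21 on GRCm38, all 10 members are protein coding. Nr4a1 lies at chr15:101254269-101274795, Fos at chr12:85473890-85477273, Fosb at chr7:19302696-19310051, Jun at chr4:95049034-95052222, Junb at chr8:84974484-84978718, Jund at chr8:70698949-70700616, Egr1 at chr18:34859823-34864984, Atf3 at chr1:191170296-191218039, Ier2 at chr8:84661331-84662852 and Klf6 at chr13:5861482-5870394. They were measured in 3 droplet libraries (10x Genomics 3′ chemistry, version 2) of bone marrow cells from C57BL/6 mice, enriched for cells that carry the surface receptor Kit. One library came from mice challenged with Escherichia coli 2 times and labelled 48 h, one from mice challenged 1 time and labelled 24 h, and one from mice at steady state. They are called rechallenged, challenged once and unchallenged. The number of challenges and the hours differ together between the challenged libraries and cannot be told apart. The labels do not give the moment from which the hours count, the age of the mice, or whether animals were pooled. A further label calls the source neutrophils of the marrow, and the series' design text counts 2 samples and names another treatment. The sample labels were followed.

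Immediate early genes are transcribed within minutes of a stimulus without new protein synthesis, through factors already present in the cell, such as SRF and CREB, which kinases activate. Many of them code for transcription factors. Fos and Jun proteins pair through leucine zippers to form AP-1, which binds DNA at AP-1 sites and, with ATF partners, at cyclic AMP response elements. Their short-lived messages also respond to the steps of tissue dissociation and cell sorting, so in cells taken from a tissue they report the handling as well as the state in the animal.

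After filtering, 8286 cells of the rechallenged library, 8356 of the library challenged once and 8796 of the unchallenged library remained, with 89866749, 126844755 and 110498482 UMIs and medians of 10247.5, 13004 and 10969 UMIs per cell in that order. A UMI is a molecular tag that marks 1 captured RNA molecule. The median share of mitochondrial UMIs was 4.10% in the rechallenged library, 2.58% in the library challenged once and 2.07% in the unchallenged library. Between 103 and 125 cell barcodes were shared by each pair of libraries, at most 1.38% of the smaller library. The cells fell into classes of hematopoietic stem and progenitor-like (HSPC-like) cells, neutrophil progenitor-like, immature and mature neutrophil-like cells, and monocyte-, dendritic cell-, macrophage-, erythroid-, megakaryocyte-, basophil or mast cell-like, lymphoid-like (T, NK or innate) and B lineage-like cells, each named from a marker list. The label that names neutrophils as the source thus covers part of the cells. Mature neutrophil-like cells numbered 438 in the rechallenged library and 280 in the library challenged once. The unchallenged library held 3, and they are not described there. Outside these classes, cluster 13, led by Mmp8, Retnlg and Mmp9, was left unnamed. It carried 8 of the 10 immature and 6 of the mature neutrophil markers. It held 242 rechallenged cells, 152 challenged once and 388 unchallenged, so the 3 cells are not all late neutrophils of the unchallenged library.

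Values are CPM, UMIs of a gene scaled to a total of 1000000 UMIs in the same population of cells, with exact Poisson 95% intervals in parentheses. Each group is 1 library, so no difference has a replicate check, no p-value is given, and every interval covers counting error only. Ratios are log2 of the quotient after 10 CPM were added to both sides, which understates the change of low genes. A gene counts as higher or lower when this ratio reaches 1.5-fold and the pair of libraries holds at least 100 UMIs of it. A low gene can pass this minimum only through the library in which it is high. Folds given with an interval are plain quotients of CPM.

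Promoters are shown first for Nr4a1, Fos, Fosb and Jun. The first 3 are among the 5 members that were at least 1.5-fold higher in rechallenged HSPC-like cells than in those challenged once, with Egr1 and Jund, and Jun was not. These 4 were chosen after the matches were known, to show promoters with and without them. RefSeq promoters of build GRCm38.p6, from 250 bases before to 50 after the start that RefSeq gives, were searched for 8 of the 10 members. Egr1 was left out of this search, and the promoter set held no entry for Ier2, so nothing is said of their promoters. For Nr4a1 and Atf3 this window lies inside the GENCODE gene, and for Jund before it, so the RefSeq start differs there from the outer end of the GENCODE gene. Each is written 5′ to 3′ on the gene's strand, with capitals on the core of the cyclic AMP response element, TGACG on either strand, and on the EGR-type site, GCGNGGGCG on either strand.

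Nr4a1, chr15:101266596-101266895, plus strand: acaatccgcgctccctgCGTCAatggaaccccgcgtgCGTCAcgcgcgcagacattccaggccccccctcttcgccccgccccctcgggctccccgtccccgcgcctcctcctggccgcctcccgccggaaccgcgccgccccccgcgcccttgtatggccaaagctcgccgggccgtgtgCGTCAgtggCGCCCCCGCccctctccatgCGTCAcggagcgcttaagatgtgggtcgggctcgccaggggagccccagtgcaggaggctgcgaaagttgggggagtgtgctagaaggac
Fos, chr12:85473640-85473939, plus strand: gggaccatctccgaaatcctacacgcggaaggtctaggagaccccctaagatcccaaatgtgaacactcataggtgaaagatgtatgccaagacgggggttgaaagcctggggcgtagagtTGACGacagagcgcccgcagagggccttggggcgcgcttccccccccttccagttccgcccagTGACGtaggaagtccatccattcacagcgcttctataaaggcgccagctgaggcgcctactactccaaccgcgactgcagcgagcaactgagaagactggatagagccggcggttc
Fosb, chr7:19309996-19310295, minus strand: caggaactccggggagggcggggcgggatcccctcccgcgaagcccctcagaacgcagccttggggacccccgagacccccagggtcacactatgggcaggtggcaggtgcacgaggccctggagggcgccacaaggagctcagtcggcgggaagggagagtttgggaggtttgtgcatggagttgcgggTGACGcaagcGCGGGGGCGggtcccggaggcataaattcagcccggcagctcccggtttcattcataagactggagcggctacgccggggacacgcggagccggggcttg
Jun, chr4:95052173-95052472, minus strand: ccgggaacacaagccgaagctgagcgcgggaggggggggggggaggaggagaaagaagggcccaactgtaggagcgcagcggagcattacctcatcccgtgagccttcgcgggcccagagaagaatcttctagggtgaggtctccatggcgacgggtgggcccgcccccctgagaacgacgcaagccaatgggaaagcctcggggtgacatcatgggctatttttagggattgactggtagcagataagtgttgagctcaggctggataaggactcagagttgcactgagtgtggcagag

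The core TGACG was found 4 times in the Nr4a1 promoter, at 233, 213, 69 and 40 bases before the start, 2 times in the Fos promoter, at 129 and 66 bases before, and once in the Fosb promoter, at 60 bases before. The Junb and Atf3 promoters held it as well, and those of Jun, Jund and Klf6 held none. Of the members named above, Jund was among the higher 5 and held none, while Junb was not among them and held it. The Jund window does not reach the start of the GENCODE gene, so a core near that start would not have been seen. At least 1 such core was present in 20.8% of 32851 promoters of the same length, at least 2 in 5.01% and at least 4 in 0.231%. The EGR-type site was found in the promoters of Nr4a1 and Fosb, and in 5.55% of all promoters. The full cyclic AMP response element TGACGTCA, the AP-1 site TGANTCA and the CArG box bound by SRF were found in none of the 8 members' windows, and in 1.79%, 7.81% and 1.63% of all promoters in that order. The shorter core was searched after the full element had been found in none. Bases outside the members' windows were not searched, for Fos or any other member. A CArG box or other site farther from the start would therefore not have been seen. A match is a string of letters, not a site shown to be bound.

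Over all kept cells, Egr1, Nr4a1, Jund and Fos were higher in the rechallenged library than in either of the others, while Jun was highest in the library challenged once. Fos, the partner of Jun proteins in AP-1, stood at 143 CPM (140 to 145) in the rechallenged library and 89.2 CPM (87.6 to 90.9) in the library challenged once, against 74.0 CPM (72.4 to 75.6) in the unchallenged library. Fosb, its close relative, stood at 25.5 CPM in the rechallenged library and 26.2 CPM in the library challenged once, against 13.5 CPM in the unchallenged library. Both challenged libraries were thus above the unchallenged library for the 2 Fos family members, with Fosb at nearly the same level in the challenged pair.

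Among the Jun proteins, Jun, which can also pair with itself, stood at 103 CPM in the rechallenged library and 173 CPM in the library challenged once, against 132 CPM in the unchallenged library. Junb, which restrains Jun and keeps stem and progenitor cell numbers in check in mice, stood at 61.2 CPM in the rechallenged library and 57.9 CPM in the library challenged once, against 41.4 CPM in the unchallenged library. Jund, the most steadily expressed of the family in resting cells, stood at 193 CPM in the rechallenged library and 96.6 CPM in the library challenged once, against 94.4 CPM in the unchallenged library. Junb and Jund thus ranked the libraries alike and Jun did not, and Jund alone of the 3 was higher by 1.5-fold in the rechallenged library than in both others.

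Egr1, a zinc finger factor that holds stem cells at rest in mouse marrow, stood at 27.9 CPM in the rechallenged library and 10.2 CPM in the library challenged once, against 7.28 CPM in the unchallenged library, from 2505, 1294 and 804 UMIs. Nr4a1, an orphan nuclear receptor that marks antigen receptor signaling in lymphocytes and is needed for patrolling monocytes in mice, stood at 10.2 CPM in the rechallenged library and 1.92 CPM in the library challenged once, against 1.5 CPM in the unchallenged library. Atf3, a repressor induced by stress, stood at 4.14 CPM in the rechallenged library and 1.05 CPM in the library challenged once, against 0.814 CPM in the unchallenged library. All 3 genes were highest in the rechallenged library, and the unchallenged library was lowest. Ier2, a nuclear protein of the early serum response, stood at 108 CPM in the rechallenged library and 102 CPM in the library challenged once, against 135 CPM in the unchallenged library. Klf6, a zinc finger factor of macrophage and stress responses, stood at 73.8 CPM in the rechallenged library and 47.3 CPM in the library challenged once, against 56.0 CPM in the unchallenged library. Ier2 was highest in the unchallenged library, and Klf6 was lowest in the library challenged once.

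Of the 10 members, 5 were higher and 0 lower in the rechallenged library than in the unchallenged library, where 2.3% of 11944 genes were higher and 4.06% lower. These were Egr1 (log2 ratio 1.13, 3.83-fold, 3.54 to 4.15), Jund (0.96, 2.04-fold), Fos (0.86, 1.93-fold), Nr4a1 (0.81, 6.77-fold, 5.73 to 8.04) and Fosb (0.60, 1.89-fold). The members' median log2 ratio was 0.53, beside -0.02 over all genes tested. In the library challenged once, 1 member, Fosb (0.62), was higher and 0 were lower than in the unchallenged library, beside 1.99% of genes higher and 1.52% lower, and the median was 0.14 beside 0.07. Between the challenged libraries, 4 members were higher in the rechallenged one, Jund (0.93), Egr1 (0.91), Nr4a1 (0.76) and Fos (0.62), beside 1.44% of genes, and Jun (-0.69) was lower, beside 8.43%. The comparisons with the unchallenged library share that library. In these sums, a change in how many cells of a class were captured and a change in RNA per cell cannot be told apart. With each library's classes weighted as in the unchallenged library, Fos (0.47) and Fosb (0.39) no longer reached 1.5-fold over the unchallenged library, and Jund, Egr1 and Nr4a1 did.

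**Figure D1:**
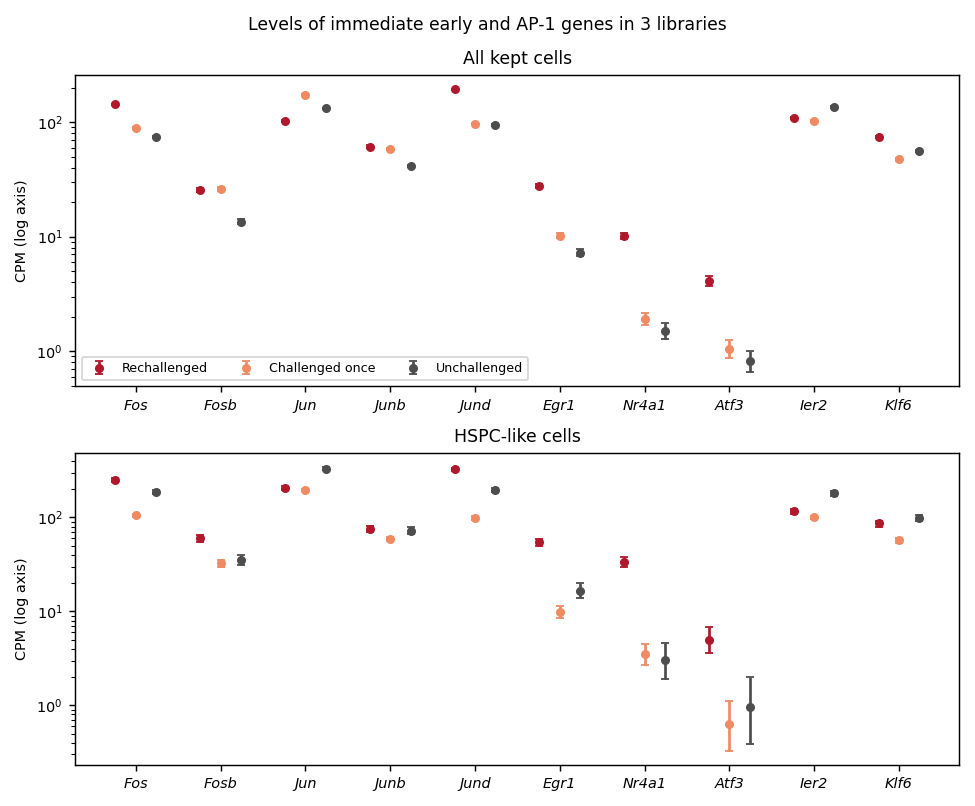
CPM on a log axis of the 10 members in all kept cells and in HSPC-like cells, with 1 point per library and bars for exact Poisson 95% intervals. Egr1, Nr4a1, Atf3 and Jund were highest in the rechallenged library in both panels, whereas Jun was highest in the library challenged once over all kept cells (173 CPM) and in the unchallenged library among HSPC-like cells (331 CPM).

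HSPC-like cells numbered 772 in the rechallenged library, 1146 in the library challenged once and 668 in the unchallenged library, and consisted of 2 clusters. Cluster 6, led by the stem cell genes Hlf and Mecom, held 373, 553 and 434 of them in that order, and cluster 8, led by Cd34, held 399, 593 and 234. In these cells the members split: Egr1, Nr4a1, Jund and Fosb were higher in the rechallenged library than in the unchallenged library, Jun and Ier2 were lower, and after 1 challenge none was higher and 5 were lower. HSPC-like cells of the library challenged once had the most UMIs, a median of 15492 per cell, against 10128 in the rechallenged library and 9211.5 in the unchallenged library. Their median mitochondrial share was 4.66% in the rechallenged library, 2.96% in the library challenged once and 2.99% in the unchallenged library, and its part in the differences was not tested.

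Nr4a1 stood at 33.6 CPM (29.8 to 37.8) in rechallenged HSPC-like cells and 3.51 CPM (2.72 to 4.47) in those challenged once, against 3.02 CPM (1.90 to 4.58) in unchallenged ones, from 282, 66 and 22 UMIs. Egr1 stood at 54.2 CPM (49.3 to 59.4) in rechallenged HSPC-like cells and 9.85 CPM (8.48 to 11.4) in those challenged once, against 16.6 CPM (13.8 to 19.9) in unchallenged ones. Both genes were highest after 2 challenges, by 11.1-fold (7.19 to 18) for Nr4a1 and 3.26-fold (2.66 to 4.02) for Egr1 over the unchallenged library. Nr4a1 did not differ beyond its counting intervals between the other libraries, and Egr1 was lower in HSPC-like cells challenged once, without reaching 1.5-fold after the addition of 10 CPM (-0.42). Atf3 had 42, 12 and 7 UMIs in the HSPC-like cells of the rechallenged, once challenged and unchallenged libraries, or 5.0, 0.639 and 0.962 CPM, too few to be counted.

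Jund stood at 326 CPM (314 to 338) in rechallenged HSPC-like cells and 98.7 CPM (94.3 to 103) in those challenged once, against 195 CPM (185 to 205) in unchallenged ones. Fos stood at 251 CPM (241 to 262) in rechallenged HSPC-like cells and 105 CPM (101 to 110) in those challenged once, against 188 CPM (178 to 198) in unchallenged ones. Both genes thus lay below the unchallenged level after 1 challenge and above it after 2. Jund was 1.67-fold higher (1.57 to 1.78) in rechallenged HSPC-like cells than in unchallenged ones and 3.30-fold higher (3.11 to 3.5) than in those challenged once. For Fos these folds were 1.34 (1.25 to 1.43), under the 1.5-fold line, and 2.39 (2.24 to 2.54). Fosb stood at 60.2 CPM (55.0 to 65.6) in rechallenged HSPC-like cells and 32.5 CPM (30.01 to 35.2) in those challenged once, against 35.3 CPM (31.1 to 39.9) in unchallenged ones, so the intervals of the last pair overlapped.

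Jun stood at 205 CPM (195 to 214) in rechallenged HSPC-like cells and 196 CPM (190 to 202) in those challenged once, against 331 CPM (318 to 344) in unchallenged ones. Ier2 stood at 117 CPM (110 to 124) in rechallenged HSPC-like cells and 99.96 CPM (95.5 to 105) in those challenged once, against 180 CPM (171 to 190) in unchallenged ones. Both genes were lower after either course of challenge. Junb stood at 75.5 CPM (69.8 to 81.7) in rechallenged HSPC-like cells and 59.0 CPM (55.5 to 62.5) in those challenged once, against 72.2 CPM (66.1 to 78.6) in unchallenged ones. Klf6 stood at 86.3 CPM (80.1 to 92.8) in rechallenged HSPC-like cells and 56.9 CPM (53.5 to 60.4) in those challenged once, against 99.1 CPM (92.01 to 107) in unchallenged ones. For Junb and Klf6 the low library was the one challenged once.

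Of 9 members with enough UMIs in HSPC-like cells, 4 were higher after 2 challenges than in the unchallenged library, Nr4a1 (log2 ratio 1.74), Egr1 (1.27), Jund (0.71) and Fosb (0.63), and 2 were lower, Jun (-0.67) and Ier2 (-0.59), where 1.75% of 8388 genes were higher and 8.77% lower. The members' median was 0.40, beside -0.13 over all genes tested. The ratios of Fosb, Jun and Ier2 stood close to the 1.5-fold line: with median-of-ratios scaling Jun was at -0.48 and Ier2 at -0.41, and with at most 5% mitochondrial UMIs Ier2 was at -0.44 and Fosb at 0.58. Of 8 members measured after 1 challenge, 0 were higher and 5 were lower than in the unchallenged library, Jund (-0.92), Ier2 (-0.79), Fos (-0.78), Jun (-0.73) and Klf6 (-0.71), beside 1.1% of 9354 genes higher and 1.4% lower. Their median was -0.72, beside -0.01. Between the challenged libraries 5 of 9 members were higher in rechallenged HSPC-like cells, Egr1 (1.69), Nr4a1 (1.69), Jund (1.63), Fos (1.18) and Fosb (0.72), and 0 were lower, beside 1.8% of genes higher and 10.4% lower. The median was 0.72, beside -0.11.

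**Figure D2:**
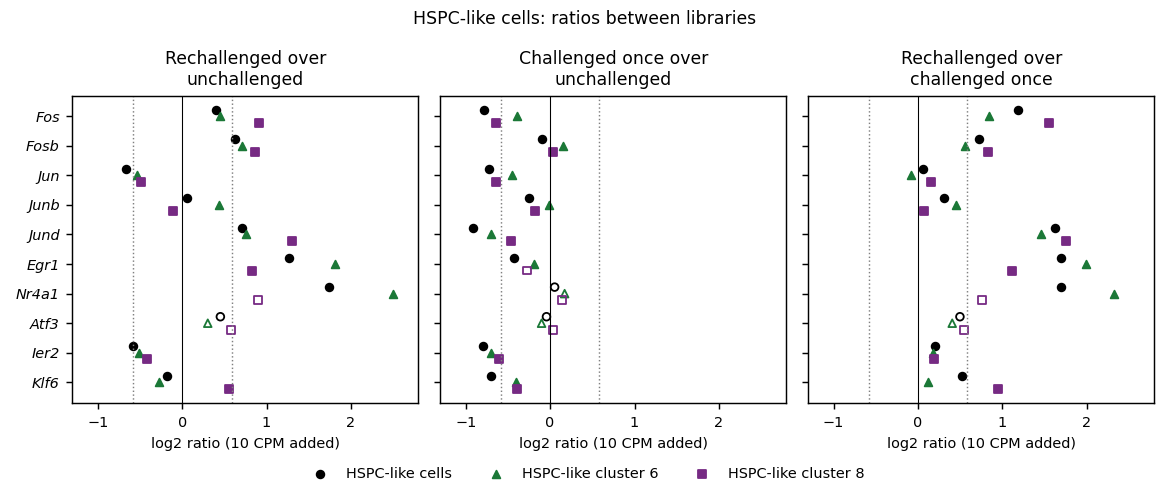
Log2 ratios between libraries (10 CPM added) of each member in all HSPC-like cells, in cluster 6 and in cluster 8, with dotted lines at 1.5-fold and open marks where the pair held under 100 UMIs. Nr4a1 in cluster 6 lay farthest to the right after 2 challenges (2.49 over the unchallenged library), and most marks lay left of 0 after 1 challenge.

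The 2 clusters differed in level. In cluster 6, Nr4a1 stood at 76.1 CPM in rechallenged cells and 7.23 CPM in those challenged once, against 5.29 CPM in unchallenged ones, which is 14.4-fold (9.09 to 24.0) over the unchallenged library. Egr1 stood there at 113 CPM in rechallenged cells and 20.9 CPM in those challenged once, 4.50-fold (3.57 to 5.71) over the unchallenged library. In cluster 8, Nr4a1 stood at 9.68 CPM in rechallenged cells and 1.67 CPM in those challenged once, against 0.572 CPM in unchallenged ones, and Egr1 at 21.0 and 4.38 CPM against 7.43 CPM. Both clusters thus showed the same order of Egr1 and Nr4a1 between the rechallenged and unchallenged libraries, at much lower levels in cluster 8. The share of cluster 6 differed between libraries, and some differences of HSPC-like cells as a whole were under 1.5-fold within the clusters. Jun was at -0.54 in cluster 6 and -0.49 in cluster 8 over the unchallenged library after 2 challenges, and Ier2 at -0.52 and -0.42, all under 1.5-fold. After 1 challenge, Ier2 was lower in both clusters (-0.70 and -0.61), Jund in cluster 6 (-0.70, against -0.46 in cluster 8), Fos and Jun in cluster 8 (-0.65 and -0.64, against -0.39 and -0.46 in cluster 6), and Klf6 in neither (-0.40 in each). Fos after 2 challenges was at 0.91 in cluster 8 and 0.45 in cluster 6.

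Shares of cells with a UMI were compared after each cell had been thinned to 2000 UMIs, which 759 rechallenged HSPC-like cells, 1138 challenged once and 665 unchallenged could supply. Nr4a1 was found in 7.64% (5.85 to 9.77, exact binomial 95% interval) of rechallenged ones and 0.967% (0.483 to 1.72) of those challenged once, against 1.20% (0.521 to 2.36) of unchallenged ones. The shares before thinning were 18.5%, 5.06% and 3.14%. Egr1 was found in 11.9% (9.64 to 14.4) of rechallenged ones and 2.64% (1.79 to 3.74) of those challenged once, against 3.46% (2.20 to 5.14) of unchallenged ones, and before thinning in 27.2%, 9.86% and 11.5%. In neutrophil progenitor-like cells, the class with the lowest level of both genes in the rechallenged library, the thinned shares were 0.123% for Nr4a1 and 0.451% for Egr1 in that library, at a median of 13808 UMIs per cell before thinning against 10128 in HSPC-like cells. The HSPC-like shares after 2 challenges were above these shares. Free RNA was not measured, and its part was not tested. Within cluster 6 the thinned share of Nr4a1 was 13.7% after 2 challenges and 1.63% after 1, against 1.86% in the unchallenged library.

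**Figure D3:**
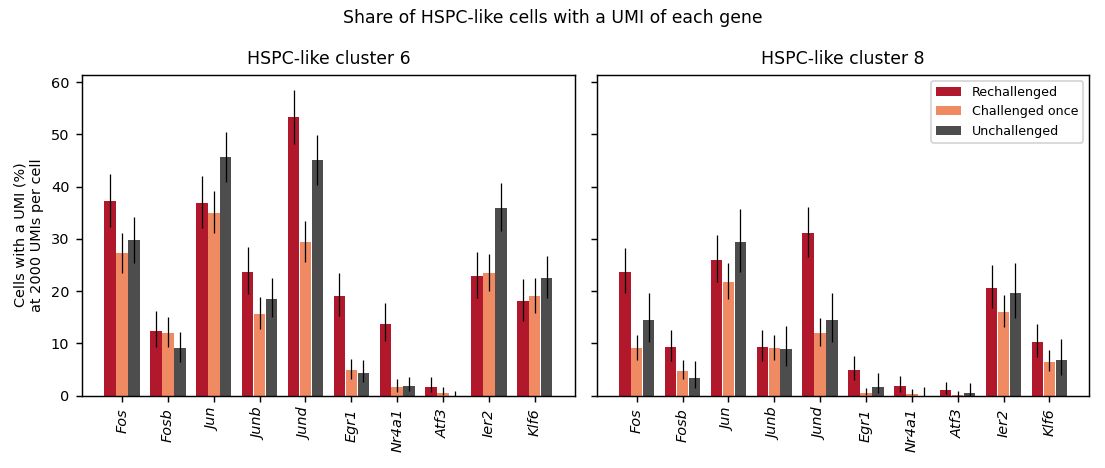
Share of cells of clusters 6 and 8 with at least 1 UMI of each member after thinning to 2000 UMIs per cell, as bars from 0 for each library with exact binomial 95% intervals. In cluster 6 the bars of Egr1 (19.1%) and Jund (53.4%) stood highest in the rechallenged library, against 4.90% and 29.4% in the library challenged once and 4.41% and 45.0% in the unchallenged library.

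For most pairs of members, the second gene was found more often in HSPC-like cells with the first gene than in the rest. The second gene of a pair was detected in a larger share of the cells with the first than of the rest in 44 of 45 pairs in the rechallenged library and 40 of 45 in the library challenged once, against 37 of 45 in the unchallenged library. Within cluster 6 this held for 44 of 45, 37 of 45 and 35 of 36 pairs in the same order, and within cluster 8 for 37 of 45, 25 of 45 and 20 of 36. The same count over pairs of other genes was not made, so these counts are not read as particular to the members. At least 5 of the 10 were detected in 9.49% of thinned rechallenged cells and 3.34% of those challenged once, against 5.11% of unchallenged ones, and none in 26.1% and 35.5%, against 25.1%. Jund was found in 59.6% of the cells with Fos and 34.4% of the rest in the rechallenged library, in 36.9% and 16.8% in the library challenged once, and in 46.3% and 30.4% in the unchallenged library. Egr1 was found in 20.4% of the cells with Fos and 8.13% of the rest in the rechallenged library, in 9.36% and 1.18% in the library challenged once, and in 9.26% and 1.59% in the unchallenged library. In both of these pairs the second gene was thus more frequent in the cells with Fos in every library. This was not so for Fosb and Nr4a1 in the rechallenged library, where Nr4a1 was found in 7.32% of the cells with Fosb and 7.68% of the rest. Spearman correlations between members over these cells, which share a library and a depth, reached at most 0.31, for Jun with Jund in the rechallenged library. The 1% of HSPC-like cells with the most Nr4a1 UMIs held 15.6% of them in the rechallenged library and 30.3% in the library challenged once, against 36.4% in the unchallenged library. Such a share rises as UMIs become fewer, and Nr4a1 had the fewest in the unchallenged library. These shares therefore cannot be compared between libraries.

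Across cell classes, Jund and Egr1 were the members most often higher after 2 challenges. Jund was higher than in the unchallenged library in 8 of the 10 classes with enough UMIs (log2 ratios -0.02 to 1.93) and lower in 0, and higher than in the library challenged once in 11 of 11 (0.77 to 2.03). Egr1 was higher than in the unchallenged library in 6 of 8 classes (0.21 to 2.02) and than in the library challenged once in 7 of 9, and Nr4a1 in 3 of 3 and 2 of 2. Jun was higher in 0 and lower in 4 of 10 classes over the unchallenged library. It was lower in 6 of 11 over the library challenged once. Over all genes in the same 10 classes, 1.75% to 11.3% were higher and 3.9% to 27.4% lower than in the unchallenged library. In the same 11 classes, 1.36% to 10.9% were higher and 4.68% to 28.9% lower than in the library challenged once. After 1 challenge, Fosb was higher in 5 of 10 classes and lower in 1, Jund lower in 2 of 10, and Junb higher or lower in 0 of 9. The classes of 1 library share its handling and sequencing, and are not replicates.

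**Figure D4:**
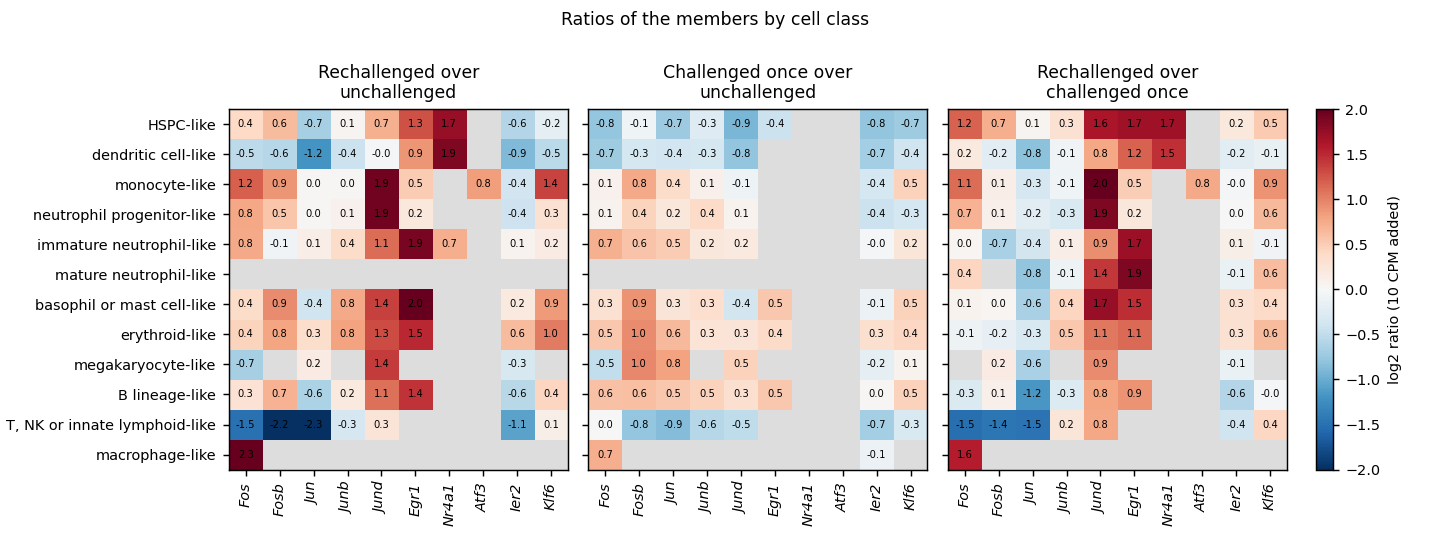
Heat map of log2 ratios (10 CPM added) of the members by cell class in the 3 comparisons, on a scale centred at 0, with grey where the pair held under 100 UMIs or the class was not described. In the rechallenged library, Jund reached its largest ratios over the unchallenged library in neutrophil progenitor-like and monocyte-like cells (1.93 in each), and the T, NK or innate lymphoid-like class stood out with Jun at -2.33 and Fosb at -2.21.

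Among the myeloid classes, neutrophil progenitor-like cells had Jund at 98.6 CPM in the rechallenged library and 19.9 CPM in the library challenged once, against 18.6 CPM in the unchallenged library, and Fos at 43.8 and 23.2 CPM against 21.5 CPM. These were the 2 members of 8 that were higher after 2 challenges than in the unchallenged library, with 0 lower, beside 2.14% of genes higher and 3.9% lower. In monocyte-like cells 5 of 9 members were higher and 0 lower, beside 1.77% and 5.63%. Fos stood there at 217 CPM in the rechallenged library and 95.2 CPM in the library challenged once, against 88.8 CPM in the unchallenged library, Jund at 160 and 31.7 CPM against 34.6 CPM, and Klf6 at 102 and 50.4 CPM against 33.9 CPM. Among the classes, Atf3 passed the minimum of 100 UMIs over the unchallenged library in this one alone, with 158 UMIs in the rechallenged library and 26 in the library challenged once, against 9 in the unchallenged library (9.07, 1.28 and 0.731 CPM).

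Mature neutrophil-like cells could be compared between the challenged libraries alone, where 3 of 7 members were higher and 1 lower in the rechallenged library, beside 10.9% of genes higher and 10.7% lower. Egr1 stood at 449 CPM in rechallenged ones, against 116 CPM in those challenged once, which is 3.87-fold (3.03 to 4.99). Fos stood at 1291 CPM in rechallenged ones, against 952 CPM in those challenged once, under the 1.5-fold line. Their Fos and Egr1 levels were the highest of the named classes in both libraries. The marker sum of mature neutrophils amounted in rechallenged HSPC-like cells to 0.795% of that in mature neutrophil-like cells, and the same share of the neutrophils' own level would be 3.57 of the 54.2 CPM of Egr1, 0.301 of the 33.6 CPM of Nr4a1 and 10.3 of the 251 CPM of Fos. For Egr1 the same estimate gave 8.81 CPM in rechallenged neutrophil progenitor-like cells, above the 2.77 CPM found there. In rechallenged monocyte-like cells it gave 6.16 CPM, above the 5.63 CPM found. The estimate is thus not a measure of carried RNA, whose part was not tested. In rechallenged immature neutrophil-like cells the share was 3.53%, or 15.8 of the 30.7 CPM of Egr1 and 45.5 of the 66.7 CPM of Fos. In those cells Egr1 stood at 30.7 CPM in the rechallenged library and 2.40 CPM in the library challenged once, against 0.919 CPM in the unchallenged library, but different clusters hold the class: cluster 14 held 626 of 925 cells in the rechallenged library, and cluster 0 held 540 of 917 in the library challenged once and 1882 of 3189 in the unchallenged library.

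Erythroid-like and basophil or mast cell-like cells showed most members higher and none lower after 2 challenges. In erythroid-like cells 6 of 8 were higher and 0 lower than in the unchallenged library, beside 2.3% and 6.47% of genes. Egr1 stood there at 70.5 CPM in the rechallenged library and 26.9 CPM in the library challenged once, against 18.4 CPM in the unchallenged library, and Jund at 388 and 182 CPM against 150 CPM. The mix and depth of this class moved with the result, and their part was not tested: cluster 9 held 299 of 561 cells in the rechallenged library and 505 of 1125 in the library challenged once, against 357 of 917 in the unchallenged library, the globin-rich cluster 17 held 94 and 148, against 239, and the median was 8926 and 18329 UMIs per cell, against 22922. In basophil or mast cell-like cells 5 of 8 were higher and 0 lower, beside 4.8% and 16.9%, with Egr1 at 172 CPM in the rechallenged library and 55.3 CPM in the library challenged once, against 35.0 CPM in the unchallenged library. For Jund these values were 602 and 174 CPM, against 226 CPM, so here too the library challenged once was lowest.

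In dendritic cell-like cells 2 of 9 members were higher after 2 challenges than in the unchallenged library and 2 lower, beside 3.12% and 13.4% of genes. Nr4a1 stood at 45.8 CPM in the rechallenged library and 10.2 CPM in the library challenged once, against 5.25 CPM in the unchallenged library, which is 8.72-fold (5.34 to 15.2) after 2 challenges. Jun stood at 137 CPM in the rechallenged library and 251 CPM in the library challenged once, against 329 CPM in the unchallenged library. Cells of this class thus shared with HSPC-like cells the higher Egr1 and Nr4a1 and the lower Jun and Ier2. In T, NK or innate lymphoid-like cells 0 of 7 were higher and 4 lower, Jun, Fosb, Fos and Ier2, beside 11.3% higher and 26.4% lower. Fos stood there at 97.2 CPM in the rechallenged library and 295 CPM in the library challenged once, against 292 CPM in the unchallenged library. The mix of this class moved with the result: of its 2 clusters, cluster 18 held 341 of 368 cells in the rechallenged library and 67 of 103 in the library challenged once, against 35 of 65 in the unchallenged library, and its part was not tested. In B lineage-like cells, Jun stood at 303 CPM in the rechallenged library and 690 CPM in the library challenged once, against 474 CPM in the unchallenged library, and Jund at 902 and 518 CPM against 413 CPM, at a median depth of 1396, 2744 and 3613.5 UMIs per cell in the same order. Cluster 22, led by Igkc and Jchain, held 115 of 502 cells of this class in the rechallenged library and 43 of 1481 in the library challenged once, against 34 of 1234 in the unchallenged library, and the part of mix and depth was not tested.

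**Figure D5:**
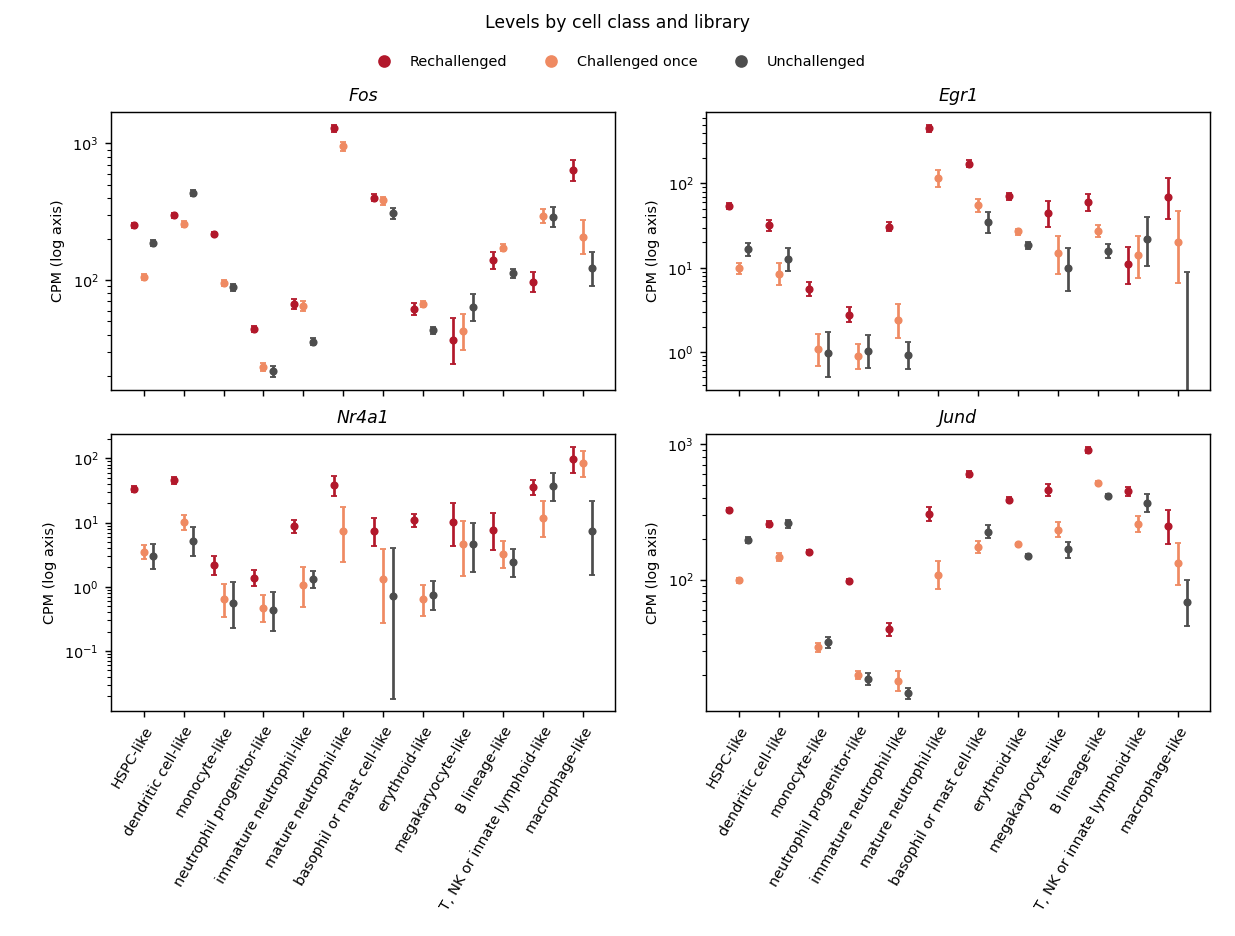
CPM on a log axis of Fos, Egr1, Nr4a1 and Jund by cell class, with 1 point per library and bars for exact Poisson 95% intervals; a bar without a point marks 0 UMIs. Mature neutrophil-like cells had the highest Fos (1291 CPM) and Egr1 (449 CPM) in the rechallenged library, and neutrophil progenitor-like cells the lowest Egr1 (2.77 CPM).

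Among classes described in every library, the one with the highest level was the same in all 3 libraries for 6 of the 10 members. This leaves out mature neutrophil-like cells, which had more Fos, Egr1, Junb and Ier2 than these classes in both challenged libraries. Junb stood there at 943 CPM in the rechallenged library and 1014 CPM in the library challenged once, and Ier2 at 557 and 615 CPM. For Jun, Jund and Klf6 this was not so. Among the 11 classes described in every library, Jun, Egr1, Ier2 and Klf6 were each highest in basophil or mast cell-like cells in all 3 libraries, Jund in B lineage-like cells, and Junb in T, NK or innate lymphoid-like cells. Fos was highest in macrophage-like cells in the rechallenged library, in basophil or mast cell-like cells in the library challenged once, and in dendritic cell-like cells in the unchallenged library. The highest class also differed between libraries for Fosb, Nr4a1 and Atf3. Jun, Junb and Jund were lowest in immature neutrophil-like cells in all 3 libraries. For Egr1 in the rechallenged library, basophil or mast cell-like cells (172 CPM, 156 to 190) stood clear of the next class. Below them, the intervals of neighbours in the order overlapped through erythroid-like (70.5 CPM, 64.2 to 77.3), macrophage-like (69.1 CPM), B lineage-like (60.1 CPM), HSPC-like (54.2 CPM) and megakaryocyte-like cells (44.1 CPM, 30.7 to 61.3).

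Over the 33 combinations of these classes and libraries, the member profiles most alike on log2(CPM + 10) were Fosb with Jun (Pearson r = 0.81), Fos with Klf6 (0.78), Junb with Jund (0.77) and Ier2 with Klf6 (0.76), and the least alike Atf3 with Ier2 (-0.03). Outside the list, the genes closest to a member among 9474 were Dusp1 for Fos (0.84), Ddah2 for Jun (0.91), Il2rg for Junb (0.91), 5031425E22Rik for Jund (0.91), Herc1 for Egr1 (0.80) and Ids for Nr4a1 (0.83). Emid1 was closest to Fosb (0.84), Brpf1 to Atf3 (0.83), Lmo4 to Ier2 (0.83) and Dusp1 to Klf6 (0.81). The points share 3 libraries and differ in depth, so these values are a description.

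The other genes of the pathway were taken from lists of names. Of 19 listed kinases and SRF partners upstream of the members, 16 were measured in HSPC-like cells after 2 challenges, with 1 higher and 1 lower than in the unchallenged library, and 17 after 1 challenge, with 1 higher and 0 lower. The higher gene was Rps6ka3 in both cases, a kinase that phosphorylates CREB and SRF, at 85.7 CPM in rechallenged HSPC-like cells and 69.4 CPM in those challenged once, against 33.4 CPM in unchallenged ones. The lower one was Map2k1, a kinase of the ERK cascade, at 14.3 CPM in rechallenged HSPC-like cells, against 31.2 CPM in unchallenged ones. Over all genes in these cells, 1.75% were higher and 8.77% lower after 2 challenges, and 1.1% higher and 1.4% lower after 1, and the counts of these short lists are read against those shares. Of 20 listed feedback inhibitors, 15 were measured after 2 challenges, with 1 higher and 3 lower, and 16 after 1 challenge, with 1 higher and 4 lower. Zfp36, which binds and destabilizes early messages, stood at 116 CPM in rechallenged HSPC-like cells and 35.0 CPM in those challenged once, against 65.98 CPM in unchallenged ones. Dusp2, a phosphatase gene that switches off MAP kinases, stood at 62.3 CPM in rechallenged HSPC-like cells and 68.8 CPM in those challenged once, against 156 CPM in unchallenged ones. Zfp36 thus ranked the libraries as Jund and Fos did, and Dusp2 was low in both challenged libraries as Jun was. Dusp6, a phosphatase for ERK, and Nfkbia, the inhibitor of NF-κB, were the other lower ones after 2 challenges.

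Among 17 other immediate early factors, 10 were measured in HSPC-like cells after 2 challenges, with 1 higher and 0 lower than in the unchallenged library, and 9 after 1 challenge, with 0 higher and 2 lower (Ier3 and Btg1). The higher one was Nr4a2, a relative of Nr4a1, at 14.5 CPM in rechallenged HSPC-like cells and 2.56 CPM in those challenged once, against 3.57 CPM in unchallenged ones. Of 19 other AP-1 and bZIP factors, 11 were measured after 2 challenges, with 1 higher and 0 lower, and 13 after 1 challenge, with 0 in either direction. The higher one was Fosl2, a Fos relative, at 16.2 CPM in rechallenged HSPC-like cells and 5.01 CPM in those challenged once, against 5.36 CPM in unchallenged ones. Single relatives of Nr4a1 and Fos were thus highest in the rechallenged library, while most measured genes of both lists stayed within 1.5-fold. Of 12 response genes linked to Nr4a1 and Egr1 downstream of antigen and growth factor receptors, 6 were measured after 2 challenges, with 1 higher (Nr4a2) and 2 lower (Dusp2 and Dusp6).

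Lists of genes that respond to handling of tissue and to heat shock were measured beside the members, and share some genes with each other and with the feedback inhibitors. Of 30 handling genes, 27 were measured in HSPC-like cells after 2 challenges, with 1 higher and 5 lower than in the unchallenged library, at a median log2 ratio of -0.14, beside -0.13 over all genes. After 1 challenge 29 were measured, with 3 higher and 4 lower, at a median of -0.17 beside -0.01. Of 12 heat shock genes, 8 were measured after 2 challenges, with 0 higher and 2 lower, and 11 after 1 challenge, with 4 higher and 0 lower. Hspa1b, an inducible chaperone, stood at 3.69 CPM in rechallenged HSPC-like cells and 19.1 CPM in those challenged once, against 5.22 CPM in unchallenged ones. These 4 (Hspa1b, Hsph1, Hspd1 and Hspe1) were thus higher in the library in which Jund, Fos, Jun, Ier2 and Klf6 were lower in these cells. The part of handling in the members' differences was not tested.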

How the data were processed

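The deposited files hold UMI counts per gene and cell barcode, made by the authors with Cell Ranger 3.0.0 on the mouse build mm10, per the submitters' processing notes, from 10x Genomics 3′ version 2 libraries, per the labels' protocols. The annotation release is not given in the sources used here. Barcodes were kept from 500 UMIs and 300 genes upward and up to 10% mitochondrial UMIs. Scrublet (scanpy 1.11.5, expected rate 6%) called 256, 294 and 427 doublets, which were removed from the rechallenged, once challenged and unchallenged libraries. The remaining cells were clustered together without correction between libraries (2000 variable genes, 30 components, 15 neighbours, Leiden resolution 1 with leidenalg 0.10.2). The clustering did not use the members, the other listed genes, or ribosomal and mitochondrial genes. A cluster was named from at least 3 markers at 2-fold over the other cells.

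Counts were summed per class and library and scaled to CPM, UMIs per 1000000, with exact Poisson 95% intervals from scipy 1.17.1. Ratios used 10 CPM added to both sides, a minimum of 100 UMIs over the pair and a 1.5-fold line. With 1 library per group no test across samples was possible. Shares of cells were given with exact Clopper-Pearson intervals, unthinned and after thinning to 2000 UMIs, which leaves out 760, 673 and 379 kept cells of the rechallenged, once challenged and unchallenged libraries. The ratio step was run on simulated counts with known folds, drawn from 1 profile without a library effect. Changed genes were scored by direction alone and unchanged genes by the 1.5-fold line, so calls of changed genes were not tested. PCR and capture can differ between libraries, which intervals of counting error do not cover. The reads come from the 3′ end: the last 300 bases of the members shared 0 stretches of 31 bases with other genes in GENCODE M21. Jun, Junb, Jund and Atf3 overlap a gene on the other strand, and whether the counting used the strand is not given in the sources used here. Mrtfa and Mrtfb of the list upstream were not found under these symbols and are not analysed here. All members were named whatever their values. From the other lists, up to 4 genes per comparison with the largest ratio could be named, and for each member the 3 genes with the most similar profile. The members and lists were chosen with earlier results of these data known. Alternatives covered cell filters, doublets, scaling, the CPM added, the UMI minimum, thinning, equal weight of cells, clustering, and, chosen after seeing the data, leaving out mature neutrophil-like cells, equal class mix and each HSPC-like cluster alone.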

Additional observations from a re-analysis of the deposited data

Results flagged for a closer look

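Several members moved in opposite directions in different classes under the same comparison, and these differences between classes were not tested, since each class of a library is 1 value. In the rechallenged library over the unchallenged library, Fos was at a log2 ratio of 2.29 in macrophage-like and -1.49 in T, NK or innate lymphoid-like cells, a difference of 3.78. Fosb was at 0.94 in basophil or mast cell-like and -2.21 in T, NK or innate lymphoid-like cells, a difference of 3.15. Ier2 was at 0.63 in erythroid-like and -1.07 in T, NK or innate lymphoid-like cells, a difference of 1.71.

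In the library challenged once over the unchallenged library, Fos was at 0.73 in macrophage-like and -0.78 in HSPC-like cells, a difference of 1.51. Fosb was at 0.95 in megakaryocyte-like and -0.77 in T, NK or innate lymphoid-like cells, a difference of 1.72, and Jun at 0.80 and -0.86 in the same classes, a difference of 1.66. Between the challenged libraries, Fos was at 1.56 in macrophage-like and -1.51 in T, NK or innate lymphoid-like cells, a difference of 3.07, and Fosb at 0.72 in HSPC-like and -1.44 in T, NK or innate lymphoid-like cells, a difference of 2.16.

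Of these 8 differences, 7 have T, NK or innate lymphoid-like cells on the low side, whose cluster 18 held 341 of 368 cells in the rechallenged library and 67 of 103 in the library challenged once, against 35 of 65 in the unchallenged library. Fos in macrophage-like cells rests on 129 UMIs in the rechallenged library and 52 in the library challenged once, against 50 in the unchallenged library, and on 66, 117 and 120 cells at medians of 1614, 916 and 935.5 UMIs per cell.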

How the results depend on the processing

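No paired analysis was possible because each group is 1 library, whose replicate number only names it. No count of members and no called member reversed its direction under an alternative; of the single-member values, 463 stayed within their counting intervals and 195 went beyond. Over all kept cells, the class mix of the unchallenged library left 3 members apart after 2 challenges over the unchallenged library, against 5. After 1 challenge, against 1 member, the count was 0 with median-of-ratios scaling and with that class mix, 3 after thinning and 5 with the mean of per-cell CPM. Between the challenged libraries it was 3, against 5, after thinning and with the mean of per-cell CPM. In HSPC-like cells after 1 challenge it was 3, against 5, after thinning, 2 in cluster 6 alone and 3 in cluster 8 alone, and between the challenged libraries 3, against 5, after thinning. Thinned counts rest on fewer UMIs and fewer members measured; the cause of the other changes was not tested. The median log2 ratio over genes, which median-of-ratios scaling sets to 0, was -0.07, 0.20 and -0.24 over all kept cells in the order of the comparisons above. Counts of all other settings stayed within 1.5-fold of the reported ones, although Fosb, Jun and Ier2 crossed the 1.5-fold line in HSPC-like cells after 2 challenges under several. Depth limits Atf3 in most classes and all members but Fos in macrophage-like cells after 2 challenges.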

Other observations

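Outside the members, 2 more immediate early factors were higher over all kept cells after 2 challenges than in the unchallenged library. Klf4, a zinc finger factor of monocytes, stood at 15.2 CPM in the rechallenged library and 7.44 CPM in the library challenged once, against 6.63 CPM in the unchallenged library. Ier3, which limits NF-κB signaling, stood at 31.9 CPM in the rechallenged library and 18.7 CPM in the library challenged once, against 17.3 CPM in the unchallenged library. Of 19 measured feedback inhibitors, 3 were higher and 3 lower, beside 2.3% and 4.06% of all genes. Dusp1, a phosphatase for p38 and JNK, stood at 84.8 CPM in the rechallenged library and 52.6 CPM in the library challenged once, against 37.2 CPM in the unchallenged library, and Spry2, an inhibitor of receptor tyrosine kinase signaling, at 16.4 and 6.37 CPM, against 4.75 CPM. Nfkbia went the other way, at 56.0 CPM in the rechallenged library and 86.2 CPM in the library challenged once, against 128.8 CPM in the unchallenged library.

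Batf, an AP-1 partner of lymphoid and myeloid cells, was highest after 1 challenge, at 14.8 CPM in the rechallenged library and 29.7 CPM in the library challenged once, against 14.9 CPM in the unchallenged library. Of 11 heat shock genes over all kept cells, 8 were higher and 0 lower after 1 challenge than in the unchallenged library, beside 1.99% and 1.52% of all genes. After 2 challenges, 0 were higher and 2 lower than in the unchallenged library, beside 2.3% and 4.06%.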
